A study of Mus musculus with 2 samples.

Results

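The 10 genes described here are effectors, partners and targets of the Hippo pathway: Yap1, Wwtr1, Tead1, Tead2, Tead3, Tead4, Ctgf, Cyr61, Amotl2 and Ajuba. They were chosen by symbol, and all 10 occur among the 31053 genes listed for the control library. The series is about the LEF/TCF transcription factors in progenitors of the lung epithelium. Epithelial cells were sorted from mouse lungs at embryonic day 15 and their RNA was counted cell by cell with the 10x Chromium 3′ kit, chemistry version 2. Each of the 2 genotypes, control and LEF/TCF knockout, gave 1 library. The alleles, the Cre driver, the number of pooled embryos and their sex are not given in the sources used here. All values below come from the control library, and the expression of the knockout library is not analysed here.

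In the Hippo pathway the kinases MST and LATS phosphorylate YAP, the product of Yap1, and TAZ, the product of Wwtr1, which keeps both out of the nucleus. Unphosphorylated YAP and TAZ do not bind DNA on their own and act through the TEAD proteins, which recognise the letters GGAATG. Cyr61 and Ctgf, which encode the secreted matrix proteins CCN1 and CCN2, are widely used as readouts of that activity, and in the fetal lung YAP is known for its part in the formation of airway and alveolar epithelium. Much of the regulation acts on the proteins, so RNA levels of Yap1 and Wwtr1 do not measure their activity.

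By identifier, all 10 genes were found in GENCODE M21 (mouse build GRCm38) as protein-coding genes. Yap1 lies at chr9:7931999-8004596 and Wwtr1 at chr3:57455649-57575910, both on the minus strand. Tead1 lies at chr7:112679318-112906807 on the plus strand, Tead2 at chr7:45215753-45233644 on the plus strand, Tead3 at chr17:28331671-28350817 on the minus strand and Tead4 at chr6:128224288-128300823 on the minus strand. Cyr61, named Ccn1 in that annotation, lies at chr3:145646976-145649981 on the minus strand, and Ctgf, named Ccn2, at chr10:24595442-24598683 on the plus strand. Amotl2 lies at chr9:102716672-102733418 on the plus strand and Ajuba at chr14:54567472-54577558 on the minus strand. The 3′ end of Tead2 overlaps Cd37 on the other strand, and Cd37 had 0 UMIs in the kept cells. Whether the counting used strand is not given in the sources used here.

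The letters that TEAD proteins recognise were looked for in the 250 bases before each RefSeq start site (GRCm38.p6), as GGAATG or its reverse complement CATTCC. Of the 10 genes, 7 are in the promoter table used, and Ctgf, Tead1 and Tead4 are not in it. The letters occurred in 6 of the 7, namely Yap1, Wwtr1, Tead3, Cyr61, Amotl2 and Ajuba, and not in Tead2. Of all 27025 genes in the table, 14.4% held them. The matches are shown with 15 bases on either side, read 5′ to 3′ on the gene's strand with the TEAD letters in capitals, because YAP and TAZ are known to reach their targets through them.
Yap1, chr9:8004717-8004752, minus strand, bases 141 to 136 before the start site: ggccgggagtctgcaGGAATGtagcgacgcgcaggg
Wwtr1, chr3:57576026-57576061, minus strand, bases 136 to 131 before the start site: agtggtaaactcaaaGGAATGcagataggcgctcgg
Tead3, chr17:28350967-28351002, minus strand, bases 182 to 177 before the start site: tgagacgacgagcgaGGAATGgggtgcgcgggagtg
Cyr61, chr3:145650068-145650103, minus strand, bases 103 to 98 before the start site: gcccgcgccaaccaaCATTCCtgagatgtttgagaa
Amotl2, chr9:102717724-102717759, plus strand, bases 65 to 60 before the start site: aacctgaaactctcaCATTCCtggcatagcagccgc
Ajuba, chr14:54577827-54577862, minus strand, bases 186 to 181 before the start site: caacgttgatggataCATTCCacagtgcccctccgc
Ajuba, chr14:54577805-54577840, minus strand, bases 164 to 159 before the start site: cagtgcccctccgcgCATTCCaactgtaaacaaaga
A second start site of Tead3 held 2 further copies, at bases 123 to 118 and 114 to 109 before it.
The full window of Cyr61, the most abundant of the 10 genes, is given in the same way.
Cyr61, chr3:145649986-145650235, minus strand: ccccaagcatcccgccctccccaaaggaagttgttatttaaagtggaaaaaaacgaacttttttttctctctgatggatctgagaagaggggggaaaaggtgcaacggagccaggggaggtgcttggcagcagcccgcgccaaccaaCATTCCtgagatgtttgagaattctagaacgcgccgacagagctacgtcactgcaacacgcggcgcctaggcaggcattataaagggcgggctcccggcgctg
The letters of the AP-1 site, TGANTCA, read on both strands, were in the windows of 0 of the 7 genes and of 7.82% of all genes. A match describes letters and is not a measured binding site.

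The control library listed 3568 barcodes and the knockout library 5342, with 29 barcodes in common. The control matrix held 53789893 UMIs, and 3457 cells with at least 1000 genes and at most 10% mitochondrial UMIs were kept, with a median of 12826 UMIs. They formed 7 clusters. In all, 5 were distal progenitor-like (distal-like below), with Sox9 at 160 against 40.8 CPM (a gene's UMIs scaled by the UMI total of the class) and Sftpc at 1563 against 120 CPM in the airway-like cluster. The airway-like cluster had Sox2 at 145 against 10.0 CPM and Scgb3a2 at 379 against 9.19 CPM. These 4 genes were summed over the distal and airway classes defined next. The remaining 43 cells were mesenchymal-like. No doublet caller was run. In 249 of 1184 cells with at least 4 Xist UMIs there was also a UMI of a Y-linked gene, and their median depth was 30401 UMIs against 12506 in the others.

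Each cell was thinned to 5000 UMIs to decide whether it held a UMI of Ager, the gene of the receptor RAGE and a marker of alveolar type 1 cells. Distal-like cells without one (1981 cells, 33296044 UMIs), airway-like cells without one (629 cells, 7820872 UMIs) and distal-like cells with at least 1 (598 cells, 10220243 UMIs) are called distal, airway and Ager-positive. Thinning hides many Ager UMIs, so the distal class still held 1240 of them (37.2 CPM, against 149 in Ager-positive cells), and 35.4% of distal and 13.8% of airway cells had one without thinning. The gate was close to its floor, since 456 of the 598 Ager-positive cells had exactly 1 Ager UMI. Ager UMIs were also found in 15.9% of the airway-like cells, which were left out, and in 2 of 38 mesenchymal-like cells (5.26%, interval 0.644 to 17.7%), against 21.6% of epithelial cells. Median depths before thinning were 7246 UMIs in mesenchymal-like and 12908.5 in epithelial cells. Against distal cells, the Ager-positive cells had more RNA of the alveolar type 1 genes Clic5 (ratio 3.89), Cav1 (1.97), Rtkn2 (1.76) and Emp2 (1.61). Igfbp2 (1.11), Hopx (0.961) and Pdpn (0.897) were close to 1, and Aqp5 had 1 UMI in Ager-positive and 0 in distal cells. The class is therefore named by its gate and not as a cell type.

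Levels below are UMIs summed over a class and scaled to CPM. A UMI marks 1 captured RNA molecule at its 3′ end, so levels were not divided by transcript length. Brackets hold exact 95% intervals, which cover counting error only. With 1 library there is no replicate spread and no test, and a gene is called higher or lower when its ratio reached 1.5 in either direction with at least 50 UMIs over both classes.

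Yap1 and Wwtr1, the genes of the 2 effectors, were both present in every class, and neither differed by 1.5-fold between the epithelial classes. Yap1 stood at 39.0 CPM in distal (36.9 to 41.1), 42.6 in airway (38.1 to 47.4) and 35.1 in Ager-positive cells (31.6 to 39.0). Wwtr1 stood at 13.1 CPM in distal (11.9 to 14.4), 14.4 in airway (11.9 to 17.4) and 14.8 in Ager-positive cells (12.5 to 17.3). For both genes the intervals of the epithelial classes overlapped. The ratio of Yap1 in Ager-positive to airway cells, the lowest and the highest class, was 0.825 (0.709 to 0.961). Yap1 made up 74.8% of the Yap1 and Wwtr1 UMIs in distal cells (72.7 to 76.8%), 74.7% in airway cells and 70.4% in Ager-positive cells (66.2 to 74.3%). In the 43 mesenchymal-like cells the balance was even, at 14 UMIs each, and Wwtr1 stood there at 38.3 CPM (20.9 to 64.3), above its interval in each epithelial class.

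Among the TEAD genes, which encode the DNA-binding partners of YAP and TAZ, Tead2 carried most of the RNA everywhere. Tead2 stood at 188 CPM in distal (183 to 193), 168 in airway (159 to 177) and 193 in Ager-positive cells (184 to 202). It held 9928 of the 12177 TEAD UMIs of all epithelial cells, or 81.5% (80.8 to 82.2%). Tead2 RNA was thus far above that of Yap1 and Wwtr1 in the same cells, while Tead4 was the rarest of the 10 genes at 2.76 CPM in distal, 1.53 in airway and 2.45 in Ager-positive cells.

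Tead1 and Tead3 were the members that were higher in airway cells. Tead1 stood at 25.8 CPM in distal (24.1 to 27.6) and 41.6 in airway cells (37.2 to 46.3), a ratio of 1.61 (1.41 to 1.83). Tead3 stood at 8.53 CPM in distal (7.57 to 9.58) and 16.8 in airway cells (14.0 to 19.9), a ratio of 1.96 (1.58 to 2.42). Neither pair of intervals overlapped. Tead2 went the other way by a small step, with an airway to distal ratio of 0.893 (0.841 to 0.948). As a result the share of Tead2 in TEAD RNA was 83.5% in distal cells (82.7 to 84.4%) and 73.7% in airway cells (71.6 to 75.8%), while that of Tead1 was 11.5% and 18.2% and that of Tead3 3.79% and 7.35%. Tead4 was below distal by the fold used, at 0.555 (0.277 to 1.02), but with 12 airway UMIs its interval held 1. Tead3 was uneven over the distal-like clusters, which also hold the Ager-positive cells. It stood at 6.19 CPM in a cluster of 258 cells and 14.9 CPM in one of 416 cells, against 16.8 in airway cells.

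**Figure D1:**
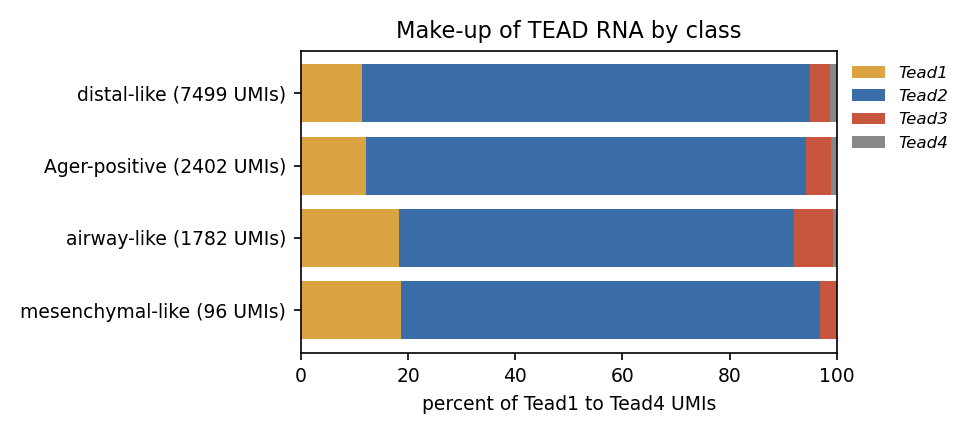
Share of each TEAD gene (horizontal axis, percent of Tead1 to Tead4 UMIs) in the 4 classes of cells, with the number of TEAD UMIs behind each bar. Tead2 is the largest part of every bar and is smaller in airway-like (73.7%) than in distal-like cells (83.5%), with no error shown.

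Of the 10 members, 2 were higher and 1 was lower in airway than in distal cells. Of the 11366 genes with enough UMIs, 16.0% were higher and 7.34% lower, so the members' share was near that of all genes. The median log2 ratio was 0.13 over the members and 0.11 over all genes. Airway cells also had more immediate early RNA (3650 against 2379 CPM), fewer cells with a UMI of Mki67 or Top2a in 5000 (175 of 629 against 969 of 1981) and a lower median depth (9602 against 13705 UMIs). Among shallow cells of at most 14000 UMIs, among cells without Mki67 and Top2a UMIs and without the cells holding both Xist and Y-linked UMIs, Tead1 and Tead3 were again past 1.5-fold. In cells with Y-linked and no Xist UMIs the ratio of Tead1 was 1.49.

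**Figure D2:**
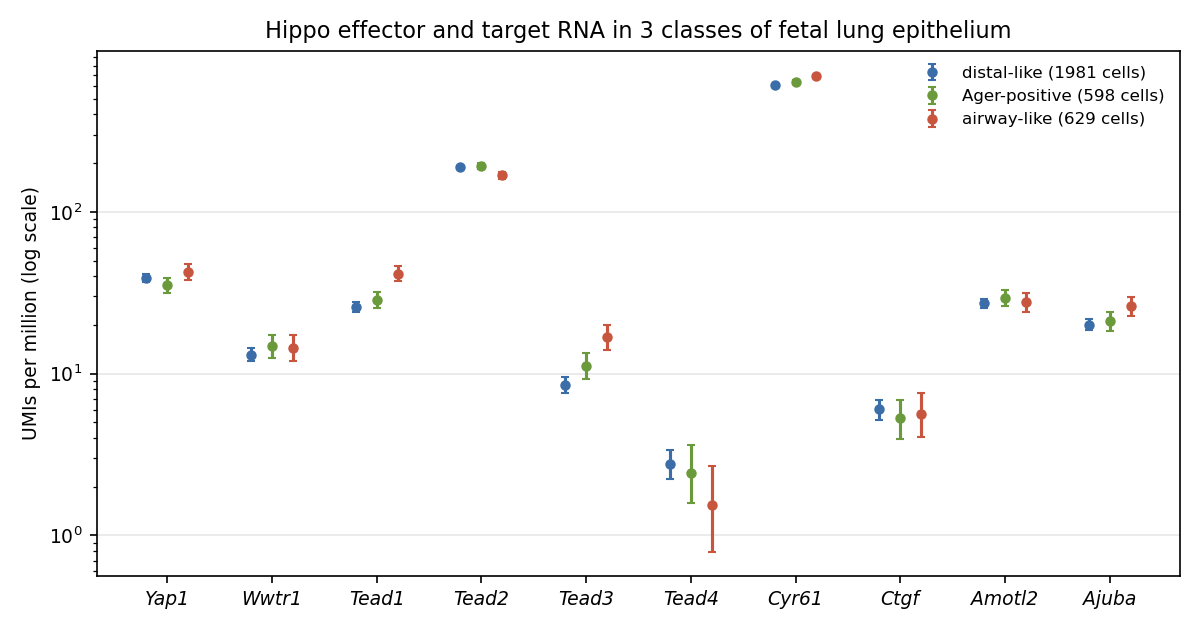
Level of each of the 10 genes (vertical axis, CPM, log scale) in distal-like, Ager-positive and airway-like cells of the control library. Points are class sums and bars exact 95% counting intervals, and the intervals of airway-like and distal-like cells are apart for Tead1, Tead2, Tead3, Cyr61 and Ajuba.

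Cyr61 was the most abundant of the 10 genes and Ctgf, its relative, was among the rarest. Cyr61 stood at 608 CPM in distal (600 to 616), 685 in airway (667 to 704) and 637 in Ager-positive cells (621 to 653), and no 2 of these intervals overlapped although all ratios were under 1.5-fold. Ctgf stood at 6.01 CPM in distal (5.20 to 6.90), 5.63 in airway (4.09 to 7.55) and 5.28 in Ager-positive cells (3.97 to 6.89), with overlapping intervals. In cells at or below the median of immediate early UMIs, a split described further on, the airway to distal ratio of Ctgf was 0.327 in place of 0.937, and Ctgf was then lower in airway cells. Few UMIs lie behind that ratio, as all airway cells together held 44 of Ctgf. Ctgf made up 0.897% of the UMIs of the pair in all epithelial cells. Of the 2 readouts of YAP and TAZ, Cyr61 thus gave nearly all of the RNA. In mesenchymal-like cells Cyr61 was at 208 CPM (164 to 260) and Ctgf had 1 UMI.

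Amotl2 encodes a motin protein that binds YAP at cell junctions and is itself a YAP target, and Ajuba encodes a LIM protein that restrains LATS kinases. Amotl2 stood at 27.2 CPM in distal (25.5 to 29.0), 27.7 in airway (24.2 to 31.7) and 29.5 in Ager-positive cells (26.2 to 33.0). Ajuba stood at 20.1 CPM in distal (18.6 to 21.7), 26.1 in airway (22.6 to 29.9) and 21.1 in Ager-positive cells (18.4 to 24.1). Amotl2 was level across the classes within its counting error, and Ajuba was above distal in airway cells, with a ratio of 1.30 (1.10 to 1.52).

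Ager-positive cells differed little from distal cells in these genes. None of the 10 members was past 1.5-fold in either direction, where 1.90% of 11322 genes were higher and 1.81% lower, so that a count of 0 among 10 is near the share of all genes. The ratio of Tead3 was 1.31 (1.04 to 1.63) and that of Yap1 0.902, with an interval that held 1. Tead3 passed the fold in cells of at most 14000 UMIs, at 1.61. Against airway cells, Tead3 was lower in Ager-positive cells at 0.666 (0.513 to 0.863), where 13.1% of 10204 genes were lower and 6.87% higher.

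**Figure D3:**
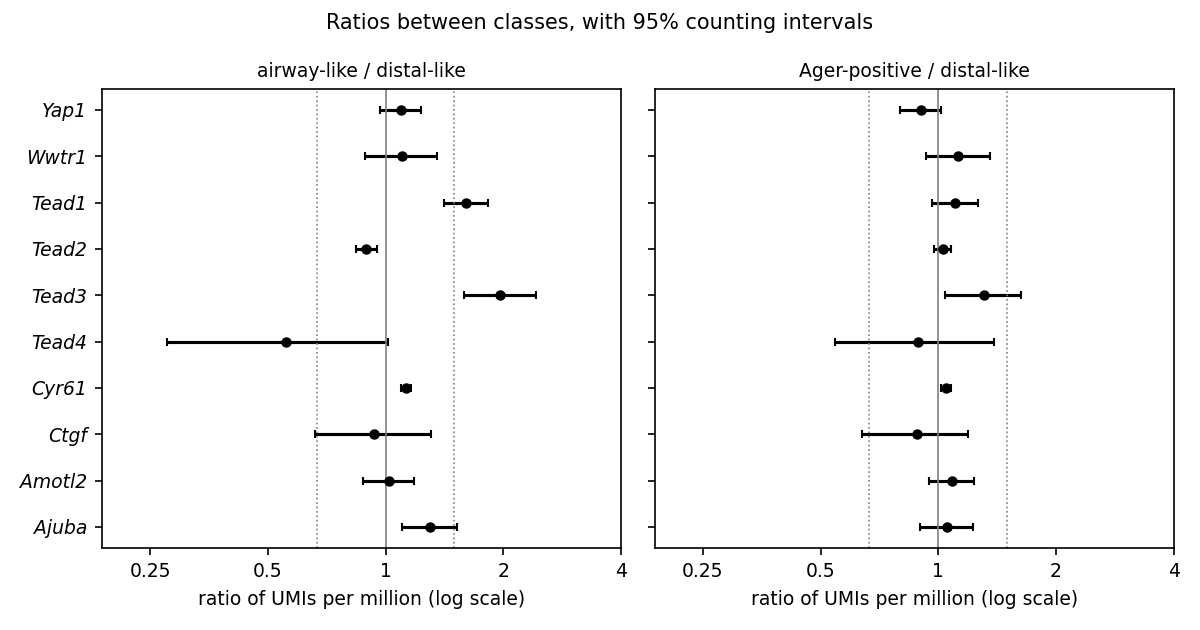
Ratio of CPM of each gene (horizontal axis, log scale) between airway-like and distal-like cells (left) and between Ager-positive and distal-like cells (right). Bars are exact 95% counting intervals, the solid line is a ratio of 1 and the dotted lines mark 1.5-fold either way: Tead1 and Tead3 lie past it on the left, Tead4 lies past it with an interval that holds 1, and no gene lies past it on the right.

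With a stricter gate, 142 cells had 2 or more Ager UMIs in 5000. Tead3 stood at 8.53 CPM at 0 Ager UMIs, 10.7 at 1 (8.52 to 13.2) and 12.9 at 2 or more (8.64 to 18.5), a ratio of the last to the first of 1.51 (0.995 to 2.22). Yap1 stood at 39.0, 38.1 and 24.5 CPM (18.4 to 31.8) over the same steps, a ratio of 0.628 (0.470 to 0.823). Ctgf had 8 UMIs in the 142 cells, a ratio of 0.592 (0.252 to 1.19). Here 1 member was higher and 2 were lower, against 5.68% and 7.37% of 11009 genes. These values depended on which UMIs the thinning kept. With another random draw for the same gate the log2 ratio was -0.07 in place of -0.67 for Yap1, 0.95 in place of 0.17 for Tead4, -1.48 in place of -0.76 for Ctgf and 0.64 in place of 0.60 for Tead3. Tead3 and Tead4 were then higher and Ctgf lower.

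Shares of cells with a UMI were compared after thinning every cell to 5000 UMIs, with 87 shallower epithelial cells left out. Of the 3327 epithelial cells, 76.7% had a UMI of Cyr61 (85.7% without thinning), 59.8% of Tead2 (87.6%) and 16.9% of Yap1 (40.7%). The shares were 12.6% for Tead1 (31.6%), 11.5% for Amotl2 (29.8%), 10.2% for Ajuba (26.1%), 5.65% for Wwtr1 (17.8%), 4.90% for Tead3 (14.8%), 2.55% for Ctgf (7.41%) and 1.20% for Tead4 (3.69%). A cell held UMIs of a median of 2 of the 10 genes at that depth, and 4.51% of cells held none. As a measure of free RNA, the mesenchymal gene Col1a1 was seen in 0.150% of epithelial cells and in 68.4% of the 38 mesenchymal-like cells, whereas the epithelial gene Sftpc was seen in 10.5% of those 38 cells and in 72.0% of epithelial cells. No class was known to lack any of the 10 genes.

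Ctgf and Cyr61 were found together in 76 cells, or 2.28% (1.80 to 2.85%), where the product of their shares is 1.96%. The interval held the product. The joint share could not exceed the 2.55% of cells with Ctgf, so this check had little room to show an excess. Of the 85 cells with Ctgf, 76 also had Cyr61, which was found in 76.7% of all epithelial cells. Whether the 2 genes occur together more often than unrelated genes was not tested. The interval held the product in 44 of the 45 pairs of members, and pairs with a rare gene have the same limit. The exception was Cyr61 with Amotl2, in 329 cells or 9.89%, with an interval from 8.90% that lay above the product of 8.83%, and within distal cells and within airway cells alone the interval of that pair held the product as well.

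Cyr61 is also an immediate early gene, induced within minutes of serum or mechanical stimulation, and genes of that kind can be induced while tissue is taken apart. The 16 immediate early genes of a fixed list (Fos, Jun, Egr1 and others, without Cyr61) summed to 2379 CPM in distal, 3650 in airway and 2395 in Ager-positive cells. Cells of each class were split at the quartiles of their immediate early UMIs in 5000, which are 5, 10 and 15 in distal cells and 10, 17 and 24 in airway cells. This split was chosen after values by cluster had been seen, and 104 distal cells lay exactly at the lower quartile and 78 at the upper one.

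Cyr61 followed the immediate early genes more closely than any other member. In distal cells it stood at 254 CPM in the 501 cells with the fewest immediate early UMIs, 535 in the next 526, 692 in the next 381 and 838 in the 573 cells with the most. In airway cells the levels were 342, 659, 782 and 979 CPM. No neighbouring intervals overlapped, and the ratio of the last group to the first was 3.30 (3.14 to 3.48) in distal and 2.87 (2.62 to 3.14) in airway cells. In distal cells this was the 33rd highest ratio among 9913 genes, a ranking that includes the listed immediate early genes themselves.

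The other members moved less, or not at all, with the immediate early genes. Amotl2 stood at 19.2, 25.3, 29.3 and 32.5 CPM over the 4 distal groups, a ratio of the last to the first of 1.69 (1.38 to 2.08). Ctgf stood at 4.65, 5.98, 5.81 and 7.04 CPM, a ratio of 1.51 (0.987 to 2.36) whose interval held 1. Ajuba went the other way, from 26.6 CPM in the first group to 18.9, 17.4 and 18.7 in the others, a ratio of 0.701 (0.571 to 0.862). Yap1 stood at 38.0, 43.7, 39.0 and 35.7 CPM, without a direction. In all, 3 members (Cyr61, Amotl2 and Ctgf) were higher and none lower by 1.5-fold, against 4.15% and 1.80% of genes. In airway cells only Cyr61 was past 1.5-fold, among 8 members with enough UMIs, against 5.63% of 6308 genes higher and 3.79% lower. Whether the responses of the 2 classes differ was not tested.

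**Figure D4:**
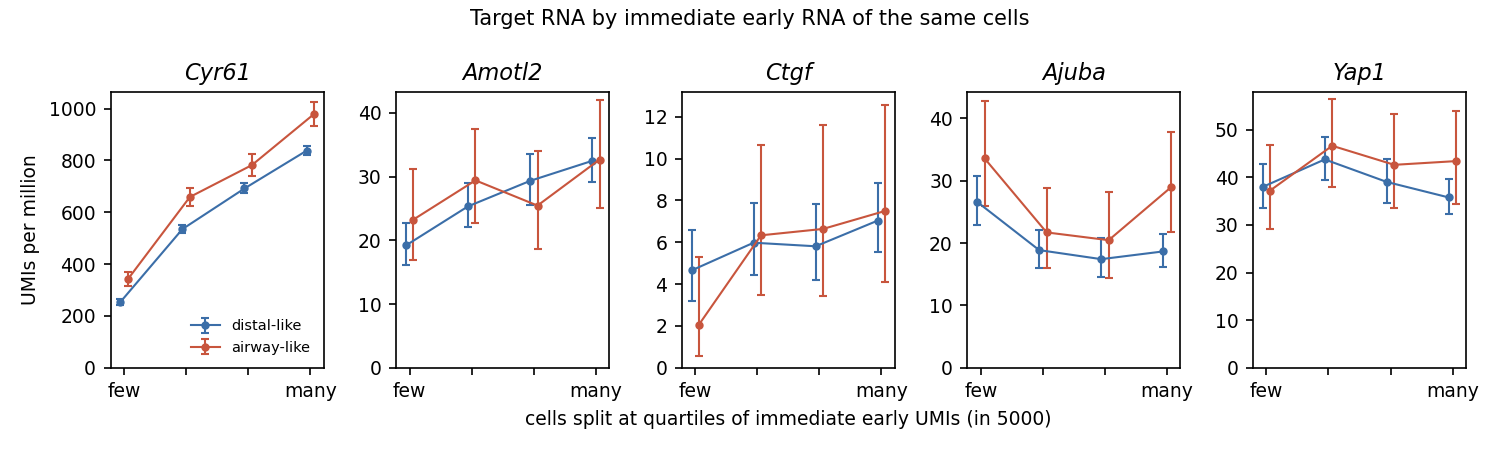
Level of 5 members (vertical axes, CPM, each from 0) in distal-like and airway-like cells split at the quartiles of immediate early UMIs, from few to many. Points are group sums and bars exact 95% counting intervals: Cyr61 climbs at each step in both classes, from 254 to 838 CPM in distal-like cells, while Yap1 shows no direction.

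The largest part of the distal cells with few immediate early UMIs came from 1 cluster, and 33.7% came from the largest distal-like cluster. A distal-like cluster of 416 cells had 775 CPM of immediate early RNA and 177 CPM of Cyr61, against 2626 and 690 CPM in the largest distal-like cluster of 1339 cells, and it supplied 43.1% of the first group and 0.175% of the last. Within the cluster of 1339 cells alone, Cyr61 stood at 340 CPM in cells of the first group and 862 in cells of the last, a ratio of 2.54 (2.38 to 2.71), and Amotl2 at 21.9 and 30.3 CPM, a ratio of 1.38 (1.05 to 1.85). Among the shallow cells the ratio of Cyr61 was 4.87 (4.42 to 5.36) and that of Amotl2 2.16 (1.54 to 3.04). The relation of Cyr61 to the immediate early genes was thus present inside a cluster and among shallow cells. The cluster of 416 cells had more Tead3 and Ajuba, at 14.9 and 27.6 CPM, than the largest cluster, at 9.38 and 20.3 CPM. Within the cluster of 1339 cells alone, the ratio of Ajuba in the last group to the first was 0.709 (0.540 to 0.937).

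The airway to distal ratio of Cyr61 was recomputed on either side of the median immediate early UMIs of all epithelial cells, a split that does not match the classes within each side. The log2 ratio of Cyr61 was -0.27 in cells at or below that median and 0.03 in cells above it, against 0.17 in all cells. It was also just below 0, at -0.02, in cells with Y-linked and no Xist UMIs. Tead1 and Tead3 were past 1.5-fold on both sides of the median. The part of immediate early content in the Cyr61 difference was not tested.

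Cells with a UMI of Mki67 or Top2a in 5000 were taken as cycling. Among distal cells there were 969 cycling and 1012 other cells, and none of the 10 members was past 1.5-fold between them, against 3.06% of genes higher and 0.999% lower in cycling cells. Ctgf was nearest, at 6.98 against 4.93 CPM, a ratio of 1.42 (1.06 to 1.91), and Tead2 was lower in cycling cells at 173 against 205 CPM, a ratio of 0.847 (0.806 to 0.891). Tead1 was at 28.5 against 22.9 CPM, a ratio of 1.25 (1.09 to 1.43). In airway cells, with 175 cycling and 454 other cells, none of 8 members with enough UMIs was past 1.5-fold, against 6.69% and 3.09% of genes.

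Cells were also divided by the sex-linked RNA they held, into those with at least 4 Xist UMIs and no Y-linked UMI and those with Y-linked and no Xist UMIs, which come from different embryos. Among distal cells, 555 and 750, none of the 10 members was past 1.5-fold, against 1.16% and 1.55% of genes. Among airway cells, 189 and 239, none of 8 members was past it, against 2.83% and 2.94% of genes. Cyr61 in airway cells was at 778 CPM in the cells with Xist (744 to 814) and 612 in the cells with Y-linked UMIs (583 to 641), a ratio of 1.27 (1.19 to 1.36). In distal cells it was at 608 and 620 CPM, a ratio of 0.982 (0.947 to 1.02).

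Ctgf was not even over the distal-like clusters. A cluster of 258 cells had 45 Ctgf UMIs, in 33 cells and at most 4 in a cell, or 12.1 CPM against 5.26 CPM in the other distal-like clusters, a ratio of 2.30 (1.63 to 3.19). Ankrd1, the gene of a muscle ankyrin repeat protein and another YAP target, was at 19.4 against 9.71 CPM there, a ratio of 1.99 (1.53 to 2.57). Both are among the cluster's 10 leading genes, although the Hippo genes were left out of the clustering, and Cyr61 did not share the pattern at 624 against 613 CPM. Of the 10 members 1 was higher and 1, Tead3 at 0.654 (0.409 to 0.996), was lower, against 4.19% and 16.2% of 11332 genes. Ankrd1 comes from a list of further YAP and TAZ targets. Of its 16 genes with enough UMIs, only Ankrd1 was higher, 1 was lower and 14 were within 1.5-fold. Xist led the same cluster, which held 221 cells with Xist and no Y-linked UMIs and 2 of the opposite pattern. Another 13.2% of its cells held at least 4 Xist UMIs and a Y-linked UMI, against 12.1% in the cluster of 1339 cells. In cells with Xist and no Y-linked UMIs, this cluster had 25 Ctgf UMIs, at 9.16 CPM against 5.08 CPM in the others. Among those cells only, the ratio was 1.80 (1.05 to 3.06) for Ctgf and 2.31 (1.64 to 3.25) for Ankrd1. Here 3.66% of genes were higher and 20.4% lower. Of 12 further targets with enough UMIs in those cells, 1 was higher and 2 were lower.

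The rest of the pathway was described with lists of genes chosen by their role. Of 10 genes of the kinase cassette, which includes Stk3 and Stk4 for MST and Lats1 and Lats2, none was higher in airway cells and 1 was lower: Taok3, the gene of an upstream kinase, at 3.58 against 7.93 CPM, a ratio of 0.452 (0.294 to 0.668). Lats1 was at 13.9 CPM in airway and 11.4 in distal cells and Lats2 at 8.69 and 8.35 CPM. Of 13 junction and polarity genes with enough UMIs, Amot (ratio 1.53, 1.15 to 2.02) and Wwc2 (1.51, 1.33 to 1.72), the gene of a KIBRA relative, were higher in airway cells. Frmd6, which encodes a FERM-domain protein, was lower at 0.622 (0.464 to 0.821). The other 10 were within 1.5-fold. Beside the 16.0% of all genes that were higher and the 7.34% that were lower, both lists were near the share of all genes.

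Vgll4, whose product competes with YAP for TEAD proteins, was among the genes lower in airway cells, at 49.9 against 98.0 CPM, a ratio of 0.509 (0.457 to 0.565). The other cofactor with enough UMIs, Wbp2, was at 41.0 against 28.3 CPM, a ratio of 1.45 (1.27 to 1.65). Vgll1, Vgll2 and Vgll3 had at most 2 UMIs in either class.

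Further YAP and TAZ targets included genes higher and genes lower in airway cells. Of 17 with enough UMIs, 3 were higher in airway cells: Crim1 at 8.44 against 0.571 CPM (ratio 14.8, 8.77 to 26.1), Igfbp3 at 7.67 against 2.16 CPM (3.55, 2.48 to 5.07) and Axl, the gene of a receptor tyrosine kinase, at 7.42 against 3.30 CPM (2.24, 1.60 to 3.11). Another 5 were lower, led by Ankrd1 at 1.02 against 11.3 CPM (0.0903, 0.0387 to 0.180), Ccdc80 at 2.94 against 17.1 CPM (0.172, 0.108 to 0.260) and F3, the gene of tissue factor, at 16.1 against 38.7 CPM (0.417, 0.344 to 0.501). The 2 others were Nuak2 and Tgfb2. Among all genes 16.0% were higher and 7.34% lower, so 3 higher of 17 was near the share of all genes. The 5 lower of 17 were above that share, a difference that was not tested. The list's median log2 ratio was -0.08, against 0.11 over all genes.

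**Figure D5:**
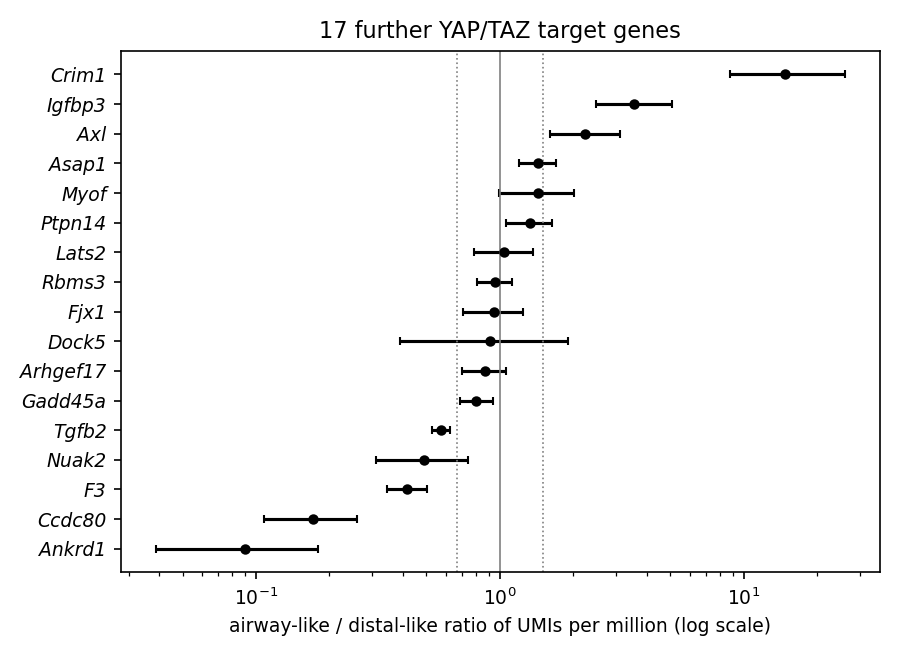
Airway-like to distal-like ratio of CPM (horizontal axis, log scale) of 17 further YAP and TAZ target genes with at least 50 UMIs, with exact 95% counting intervals. The solid line is a ratio of 1 and the dotted lines mark 1.5-fold either way, with 3 genes past it on the right and 5 on the left, from Ankrd1 at 0.0903 to Crim1 at 14.8.

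Between Ager-positive and distal cells none of the listed pathway genes with enough UMIs was past 1.5-fold, in the kinase, junction, cofactor or target list, where 1.90% of 11322 genes were higher and 1.81% lower, so that a count of 0 is near the share of all genes. Ankrd1 was at 8.12 against 11.3 CPM, a ratio of 0.717 (0.559 to 0.912), and Tgfb2, the gene of the ligand TGF-beta 2, at 173 against 142 CPM, a ratio of 1.22 (1.15 to 1.29). Ankrd1 also moved with the immediate early genes in distal cells, from 3.93 CPM in the first group to 8.09, 13.8 and 17.0 CPM, a ratio of the last to the first of 4.32 (2.88 to 6.74). Its level in airway cells, where immediate early RNA was higher, was below that of each of these distal groups.

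Markers of other cell types were low in all 3 classes. The mesenchymal list of 6 genes summed to 1.41 CPM in distal, 1.28 in airway and 0.978 in Ager-positive cells, against 1297 CPM in mesenchymal-like cells. Endothelial and mesothelial lists stayed under 2 CPM in each class. Blood genes were at 27.0 CPM in distal, 0.895 in airway and 1.08 in Ager-positive cells, and 867 of the 899 Pf4 UMIs of the library lay in 1 cell.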

How the data were processed

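The members and gene lists were chosen with earlier results of these data known. Per the labels' protocols, RNA of sorted lung epithelium was captured with 10x Chromium 3′ chemistry (version 2) and read on a NextSeq500. Cell Ranger, Seurat and mm10 are named in the submitters' processing notes. The values are UMI counts as deposited, unscaled, written by software version 3.0.1, per the file headers. The annotation and strand setting used for counting are not given in the sources used here.

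The cell filter was 1000 or more genes and no more than 10% mitochondrial UMIs. Counts scaled to 10000 per cell were log-transformed, and 2000 variable genes outside the Hippo and cell-cycle lists gave 20 principal components, 20 neighbours and Leiden clusters at resolution 0.5, seed 0 (scanpy 1.11.5, leidenalg 0.10.2). Clusters were named from at least 3 markers of a class at 2-fold, or called distal progenitor-like when 3 distal markers reached 1.5-fold over airway-like cells. Class sums were scaled to CPM. Intervals are exact Poisson (levels), conditional (ratios) and Clopper-Pearson (shares), from scipy 1.17.1, and the code was tested on simulated data. Cells were thinned at random to 5000 UMIs for shares and gates. There is 1 library per group, so no test was made. At 5000 UMIs, a count of 0 over the 3327 epithelial cells limits a share to 0.0902% (3 counts of the total, not a Clopper-Pearson bound).

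Named were the 10 members and, for each Hippo list and class comparison, up to 3 genes with the largest ratios in each direction among those past 1.5-fold with at least 50 UMIs. Single pathway genes named for contrast (Lats1, Lats2, Wbp2, and Ankrd1 and Tgfb2 beside the Ager-positive cells) were chosen after their values were seen, as were the contrasts by immediate early UMIs, cycling, sex-linked RNA and cluster within a class. Alternatives covered clustering, class rules, thinning, cell filters, depth, sex-linked RNA, cycling, weighting, UMI minimum and immediate early content.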

Additional observations from a re-analysis of the deposited data

How the results depend on the processing

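Over 28 alternative settings, 496 ratios of members were recomputed. Of these, 428 lay inside the first interval, 68 outside, and 0 changed direction after having been past 1.5-fold. The airway to distal ratio of Tead3 ranged from 1.81 to 2.48 and that of Tead1 from 1.49 to 2.16, so that 1 member in place of 2 was higher in cells with no Xist UMI and a Y-linked UMI. The count of members lower in airway cells, 1 at first (Tead4), was 0 with clustering seed 1, with classes set by Sox2 and Sox9 UMIs, in cells of at most 14000 UMIs, in cells of either sex pattern, in cells without Mki67 and Top2a UMIs and in cells above the median of immediate early UMIs. It was 2 in cells at or below that median, where Ctgf joined Tead4. For Ager-positive against distal cells, 0 higher at first, 1 was higher with clustering seed 2, resolution 0.8, Sox2 and Sox9 classes, at least 2 Ager UMIs and at most 14000 UMIs (Tead3 each time), and in cells without Mki67 and Top2a UMIs (Tead1). With at least 2 Ager UMIs and thinning seed 1, 2 were higher. From 0 lower at first, 1 was lower with thinning to 3000 UMIs, at least 1500 genes, cells with Xist and no Y-linked UMI, and 2 Ager UMIs with thinning seed 1 (Ctgf each time), and in cells without Mki67 and Top2a UMIs (Wwtr1), and 2 were lower with at least 2 Ager UMIs (Yap1 and Ctgf). The low counts of Tead4, Ctgf and the stricter gates limit these calls, and the cause of the other moves was not tested. Shares of cells moved with thinning depth. At 3000 UMIs and without thinning they were 10.5% and 40.7% for Yap1, 3.76% and 17.8% for Wwtr1, 7.44% and 31.6% for Tead1, 42.9% and 87.6% for Tead2, 3.62% and 14.8% for Tead3, 0.735% and 3.69% for Tead4, 1.74% and 7.41% for Ctgf, 67.5% and 85.7% for Cyr61, 6.97% and 29.8% for Amotl2, 6.26% and 26.1% for Ajuba, and 1.47% and 7.18% for Ctgf with Cyr61. Adding unnamed epithelial clusters to the distal class was not run because no epithelial cluster was unnamed. No paired analysis was possible because there is 1 library per group.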
